A study of Bos taurus with 50 samples.

Results

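The genes described here were MAT1A (ENSBTAG00000005963) and TST (ENSBTAG00000030650), 2 of the 18830 genes in a table of endometrial read counts from postpartum dairy cows. They were taken by their Ensembl identifiers, because both differed between cycling and non-cycling cows at week 5 and between the weeks in the non-cycling cows. They were thus selected on their read counts in those comparisons, whose values are given for MAT1A and TST as a description without a test.

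MAT1A encodes the liver-type methionine adenosyltransferase, which joins methionine to ATP to make S-adenosylmethionine, the methyl donor of most cellular methylation reactions. TST encodes thiosulfate sulfurtransferase (rhodanese), a mitochondrial enzyme that moves sulfur from thiosulfate to cyanide and other acceptors and takes part in the disposal of sulfide. The endometrium is the lining of the uterus, with a luminal and glandular epithelium over a stroma, and in cattle its gene expression follows the rise and fall of ovarian progesterone (P4).

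Endometrium was biopsied at week 5 and week 9 postpartum from Holstein x Jersey cows in their first lactation. CycW5 cows were cycling under P4 at week 5, with a corpus luteum present (10 libraries at week 5 and 10 at week 9). NoCycW5 cows had no corpus luteum at week 5 and no detectable P4 up to then (12 and 11 libraries). CycNoP4 cows were cycling but had lost their circulating P4 by the week 5 biopsy (4 and 3 libraries), and the study left them out of its analysis. Of the CycW5 and NoCycW5 cows the study kept only those with complete data, so some libraries of these groups were outside its analysis too. All cows received the same ovulation synchronization between the biopsies (GnRH, a P4 insert and PGF2α), timed so that the week 9 biopsy fell in the luteal phase of a synchronized cycle. The labels did not link libraries to cows, so libraries of week 5 and week 9 can share a cow, and the P values treat them as independent samples.

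The 50 libraries held 21592867 to 32813237 reads on genes. The closest of the 1225 pairs of libraries still differed by a mean chi-square of 27.9 per gene, so no library was counted as a duplicate of another. MAT1A had 8 to 592 reads per library and TST had 459 to 18163. Levels are CPM, read counts scaled to a common library size with TMM factors over the 50 libraries, and are compared within a gene because no gene lengths were at hand. At the lowest read count of MAT1A (8 reads, 0.323 CPM) the 95% exact Poisson interval was 0.139 to 0.636 CPM, and at that of TST (459 reads, 15.2 CPM) it was 13.9 to 16.7 CPM. These intervals cover counting error only.

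At week 5, both genes were low in the NoCycW5 cows and 10.96-fold (MAT1A) and 10.5-fold (TST) higher in the CycW5 cows, and the CycNoP4 cows resembled the NoCycW5 cows for MAT1A but lay between the other groups for TST. By week 9 the 3 groups had means of 6.79 to 10.5 CPM of MAT1A and 146 to 294 CPM of TST. Both genes also rose from week 5 to week 9 within the CycNoP4 cows, whose libraries the study left out of its own analysis. In comparisons between groups or weeks, MAT1A and TST are tested here only from week 5 to week 9 within the CycNoP4 cows. Each of the other comparisons holds libraries that helped, or may have helped, to choose the genes. Their values for MAT1A and TST are given without a test.

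The lowest level of MAT1A was in the NoCycW5 cows at week 5, with a lowest, median and highest library of 0.267, 0.650 and 2.08 CPM (mean 0.924 ± 0.654, SD, n = 12). CycW5 libraries of that week had 1.15, 9.29 and 18.5 CPM (10.2 ± 5.94, SD, n = 10). Of the 10 CycW5 libraries, 9 were above every NoCycW5 library, and the exception was library 57, at 1.15 CPM. CycW5 exceeded NoCycW5 cows by 3.45 on the log2 scale (standard error 0.45), and 111 of the 15483 genes tested had a larger value. In this comparison 26.6% of all genes tested were called at a Benjamini-Hochberg adjusted P (BH P) of 0.05 or less with edgeR's quasi-likelihood test.

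TST showed the same order of these groups at week 5. Its lowest, median and highest NoCycW5 library had 15.2, 25.3 and 49.8 CPM (30.3 ± 11.2, SD, n = 12). Among CycW5 libraries these values were 35.5, 298 and 565 CPM (318 ± 175, SD, n = 10). Library 57 was again the lowest of the CycW5 libraries and the only one within the NoCycW5 range, and library 52 was the next lowest at 83.0 CPM. On the log2 scale the difference was 3.39 (standard error 0.39), with 121 genes above it.

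**Figure D1:**
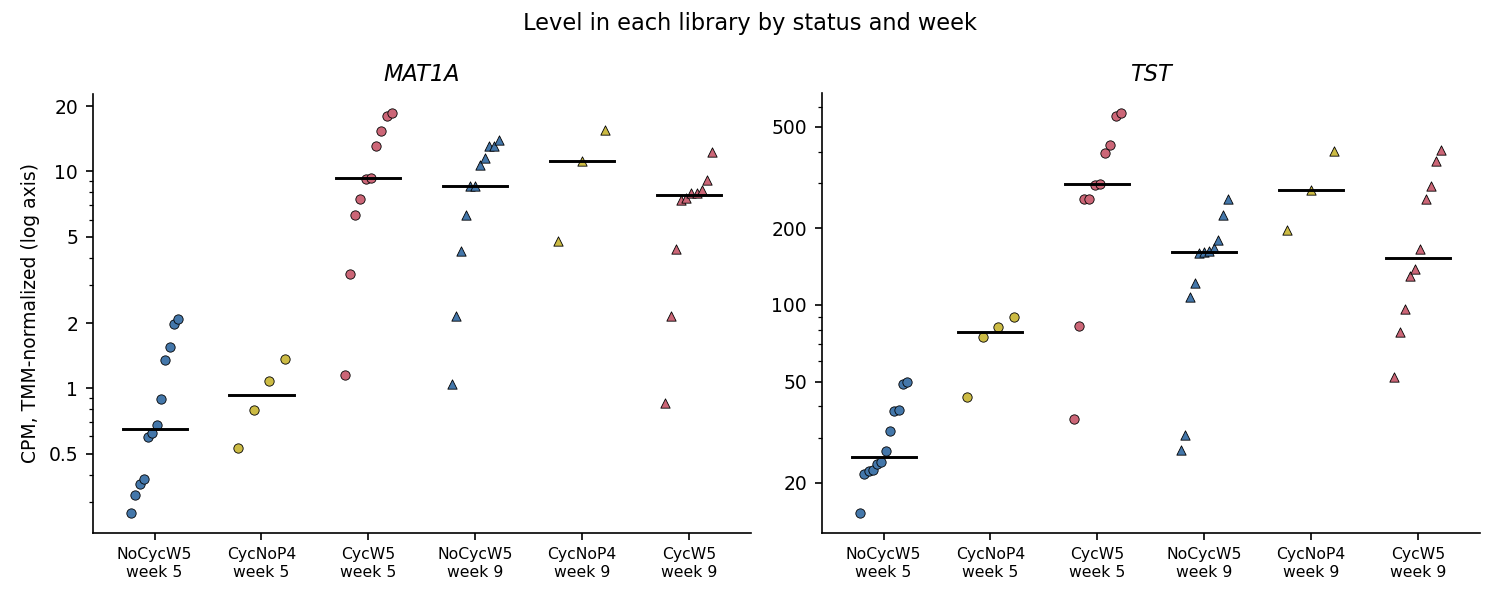
Level of MAT1A (left) and TST (right) in each of the 50 libraries, in TMM-scaled CPM on a log axis, by status and week; circles are week 5, triangles are week 9 and the bars are group medians. MAT1A sat at medians of 0.650 and 0.937 CPM in the NoCycW5 and CycNoP4 cows at week 5 and at 7.77 to 11.2 CPM in the other 4 groups, while the median of TST in the CycNoP4 cows at week 5 (78.1 CPM) lay between those of NoCycW5 (25.3 CPM) and CycW5 (298 CPM).

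At the later biopsy of the NoCycW5 cows, MAT1A had a lowest, median and highest library of 1.05, 8.61 and 14.0 CPM (8.49 ± 4.53, SD, n = 11). All but 1 of these 11 libraries were above every NoCycW5 library of week 5, and the exception was library 76. The increase was 3.19 on the log2 scale (standard error 0.44), where 35.7% of all genes tested were called. TST had 26.96, 161 and 262 CPM in the lowest, median and highest library (146 ± 71.8, SD, n = 11). Libraries 76 (26.96 CPM) and 91 (30.9 CPM) were within the week 5 range and the next library was at 108 CPM. For TST the increase was 2.27 on the log2 scale (standard error 0.37).

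In the CycW5 cows the mean of both genes was lower at week 9 than at week 5. MAT1A at week 9 had a lowest, median and highest library of 0.854, 7.77 and 12.2 CPM (6.79 ± 3.39, SD, n = 10), against a mean of 10.2 CPM at week 5. This is a log2 fold change of -0.57 (standard error 0.43). TST at week 9 had 52.2, 152 and 407 CPM (199 ± 125, SD, n = 10), with a log2 fold change of -0.66 (standard error 0.38). The ranges of the weeks overlapped in both genes. The comparison called 0.0452% of all genes with edgeR (7 genes, and 2204 at an unadjusted P under 0.05).

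The difference between the week changes, that of NoCycW5 cows minus that of CycW5 cows, was 3.76 on the log2 scale for MAT1A (standard error 0.62) and 2.93 for TST (standard error 0.53). It is given without a test because its parts chose the genes. Over all genes, 7.82% were called for this difference.

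CycW5 and NoCycW5 libraries of week 9 overlapped in both genes. With CycW5 set against NoCycW5 the log2 fold change was -0.31 for MAT1A (standard error 0.42) and 0.45 for TST (standard error 0.37). For TST 3 of the 10 CycW5 libraries were above every NoCycW5 library, and for MAT1A none was. This comparison called 0.00646% of all genes with edgeR (1 gene, and 992 at an unadjusted P under 0.05).

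In the 4 CycNoP4 libraries of week 5 MAT1A was at the level of the NoCycW5 cows and TST was above it. For MAT1A, library 56 had 0.529, library 58 had 0.792, library 64 had 1.08 and library 51 had 1.36 CPM (0.942 ± 0.361, SD, n = 4). All 4 were inside the NoCycW5 range. CycNoP4 differed from NoCycW5 cows by 0.035 on the log2 scale (standard error 0.56). For TST, library 64 had 43.3, library 51 had 74.5, library 58 had 81.7 and library 56 had 90.0 CPM (72.4 ± 20.4, SD, n = 4). All but library 64 were above every NoCycW5 library. The TST value of the CycNoP4 cows was above that of the NoCycW5 cows by 1.27 on the log2 scale (standard error 0.40), and it was 1.15 to 1.45 over the 16 fits that left out 1 library. In this comparison 14.7% of all genes were called. Whether the 2 genes differed from each other in this comparison was not tested.

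Against the CycW5 cows of the same week, the CycNoP4 cows had lower means in both genes. The difference was -3.43 on the log2 scale for MAT1A (standard error 0.68) and -2.14 for TST (standard error 0.49), where 17.7% of all genes were called. For MAT1A, 3 of the 4 CycNoP4 libraries were below all CycW5 libraries. For TST none was, since library 57 of the CycW5 cows had 35.5 CPM, and all 4 were below the CycW5 median of 298 CPM.

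From week 5 to week 9 both genes rose in the CycNoP4 cows. The 7 compared libraries were not part of the comparisons named above for choosing the genes. The genes were, however, chosen with earlier results of these data known, so the P values may not be free of that choice. The spread behind the standard errors and P values also came from the fit of all 50 libraries, which holds those that chose the genes. MAT1A at week 9 had 4.76 CPM in library 88, 11.2 CPM in library 79 and 15.6 CPM in library 94 (10.5 ± 5.44, SD, n = 3), each above all 4 week 5 libraries. MAT1A thus rose by 3.47 on the log2 scale (standard error 0.77, 95% interval 1.93 to 5.02, edgeR BH P = 0.00377). TST had 197 CPM in library 79, 283 CPM in library 94 and 403 CPM in library 88 (294 ± 103, SD, n = 3), again each above all 4 week 5 libraries. Its log2 fold change was 2.02 (standard error 0.63, 95% interval 0.76 to 3.29, edgeR BH P = 0.0214). In this comparison 19.6% of all 16120 genes tested were called, with 128 genes above MAT1A and 410 above TST in log2 fold change. What share of all genes separates these 7 libraries in the same way was not computed, here or for genes named further on. A fit of the 7 CycNoP4 libraries alone, added after seeing the data, called 1231 genes and kept both calls, with 3.45 for MAT1A (standard error 0.50, BH P = 0.0126) and 2.0001 for TST (standard error 0.32, BH P = 0.0162). The call of TST in the fit of all 50 was lost without library 51 of week 5, 88 of week 9 or 94 of week 9 (values of 1.70 to 2.22, BH P up to 0.0869), and that of MAT1A held in all 7 fits that left out 1 library (BH P up to 0.0251).

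**Figure D2:**
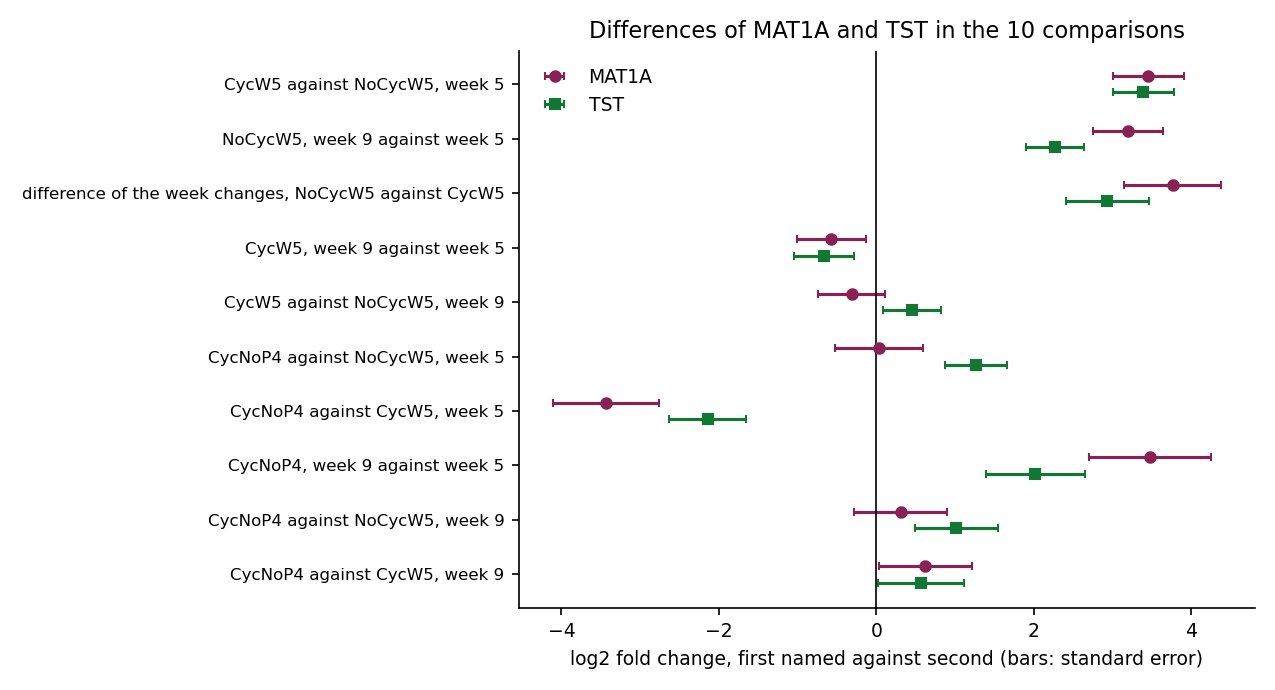
Log2 fold changes of MAT1A and TST in the 10 comparisons; points are fitted values and bars are standard errors of the edgeR fit, with the first named group or week against the second. All but CycNoP4 week 9 against week 5 hold libraries that helped, or may have helped, to choose the genes. CycNoP4 week 9 against week 5 sits at 3.47 and 2.02, and NoCycW5 week 9 against week 5 at 3.19 and 2.27.

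At week 9 the CycNoP4 cows had the highest mean of MAT1A and TST among the 3 groups of that week. Against NoCycW5 cows the log2 fold change was 0.31 for MAT1A (standard error 0.59) and 1.02 for TST (standard error 0.53), given without a test. Against CycW5 cows it was 0.62 for MAT1A (95% interval -0.60 to 1.84) and 0.56 for TST (95% interval -0.57 to 1.69), also given without a test. With edgeR each of these comparisons called 0% of all genes, with 665 and 684 genes at an unadjusted P under 0.05. The DESeq2 Wald test called 8 and 3 genes, and limma-voom, without or with library quality weights, called 0 in both.

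Ordered by mean, MAT1A was at 0.924 CPM in NoCycW5 and 0.942 CPM in CycNoP4 cows at week 5, then at 6.79 CPM in CycW5 and 8.49 CPM in NoCycW5 cows at week 9, 10.2 CPM in CycW5 cows at week 5 and 10.5 CPM in CycNoP4 cows at week 9. The first pair of neighbours overlapped, and so did all neighbours among the upper 4 groups. For TST the order was NoCycW5 (30.3 CPM) and CycNoP4 (72.4 CPM) at week 5, NoCycW5 (146 CPM), CycW5 (199 CPM) and CycNoP4 (294 CPM) at week 9, and CycW5 at week 5 (318 CPM). Each pair of neighbours in that order overlapped in at least 1 library. CycW5 cows at week 9 were below NoCycW5 cows of that week for MAT1A and above them for TST.

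The ratio of TST to MAT1A put the same contrast in one value per library, which was not tested. The log2 of the ratio was 6.30 ± 0.93 in the CycNoP4 cows at week 5 (SD, n = 4, range 5.32 to 7.41) and 5.28 ± 1.01 in the NoCycW5 cows (n = 12, 4.04 to 7.11). It was 4.97 ± 0.31 in the CycW5 cows at week 5 (n = 10, 4.52 to 5.43), the narrowest group. At week 9 it was 4.16 ± 0.61 in the NoCycW5 cows (n = 11), 4.89 ± 0.80 in the CycW5 cows (n = 10) and 4.91 ± 1.29 in the CycNoP4 cows (n = 3). The ranges of the groups at week 5 overlapped.

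A few libraries were low in both genes within groups that were otherwise high. Library 57 (CycW5, week 5) had 1.15 CPM of MAT1A and 35.5 CPM of TST. Library 87 (CycW5, week 9) had 0.854 and 52.2 CPM, library 76 (NoCycW5, week 9) had 1.05 and 26.96 CPM, and library 91 (NoCycW5, week 9) had 2.15 and 30.9 CPM. The oxytocin receptor gene OXTR, which mediates the uterine response to oxytocin and is low in the bovine endometrium while P4 dominates, was high in the same libraries: 151 CPM in library 57, 178 CPM in library 87, 93.4 CPM in library 76 and 162 CPM in library 91. These values lie within the OXTR range of the NoCycW5 cows at week 5, which was 80.2 to 222 CPM. High OXTR did not always go with low MAT1A and TST. Library 72 (CycW5, week 9) had 111 CPM of OXTR with 8.21 CPM of MAT1A and 368 CPM of TST, and library 80 (NoCycW5, week 9) had 81.5 CPM of OXTR with 11.5 and 262 CPM. Library 81 (CycW5, week 9), at 4.73 CPM of OXTR, had only 2.15 CPM of MAT1A, with 130.3 CPM of TST. In the CycNoP4 cows OXTR was 120 to 277 CPM at week 5 and 1.59 to 10.01 CPM at week 9, without overlap (log2 fold change -5.36, standard error 1.46, edgeR BH P = 0.0112). The part of the P4 status of single cows in the levels of MAT1A and TST was not tested, since the labels give no hormone value per library.

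**Figure D3:**
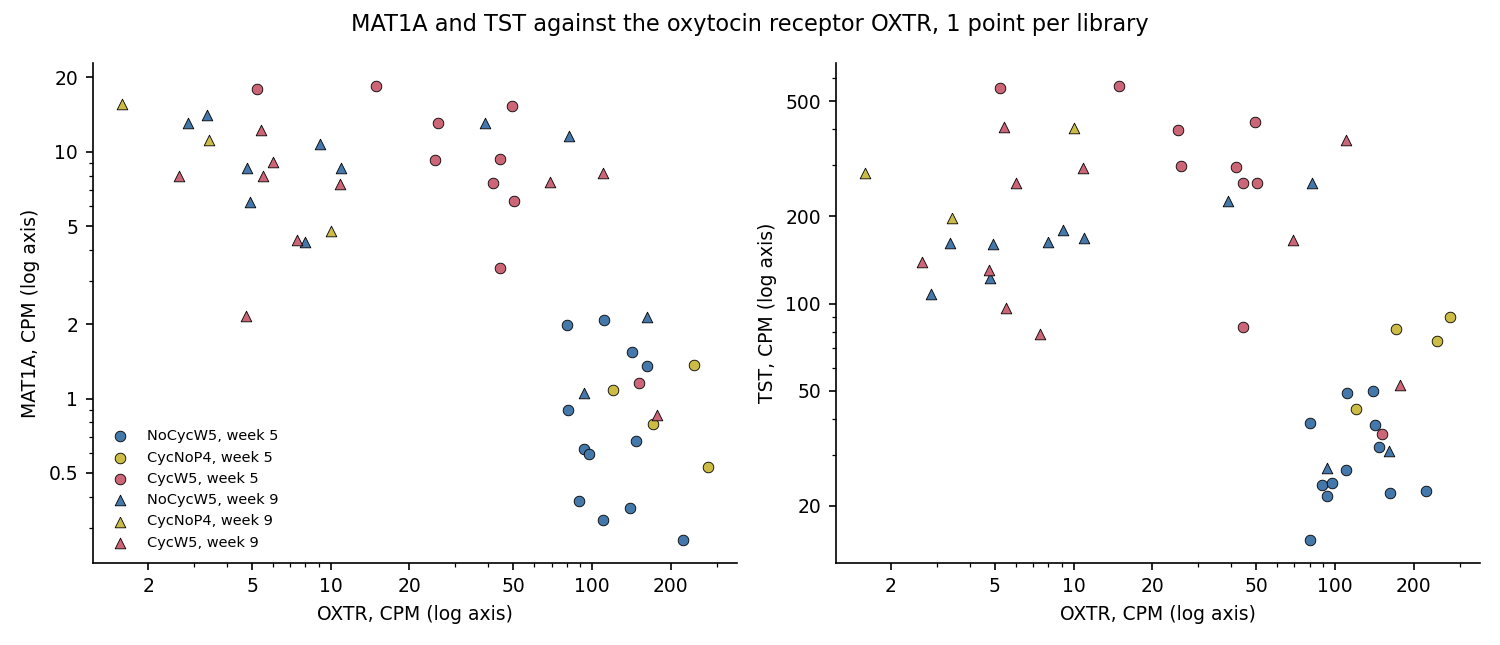
MAT1A (left) and TST (right) against OXTR, all in CPM on log axes, 1 point per library; colours are the status groups, circles are week 5 and triangles are week 9. Libraries with high OXTR were mostly those of NoCycW5 and CycNoP4 cows at week 5, with at most 2.08 CPM of MAT1A and 90.0 CPM of TST. Libraries 57, 87, 76 and 91 of groups that were otherwise high were also low in both genes. Libraries 72, 80, 83 and 75 of week 9 were not, and library 72 (111 CPM of OXTR) kept 8.21 CPM of MAT1A and 368 CPM of TST.

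Within groups of at least 6 libraries the 2 genes varied together to different degrees, in 28 relations examined between MAT1A, TST and 4 other genes on log2 CPM. The permutation P values concern variation within a group, in libraries that helped, or may have helped, to choose the 2 genes. Among CycW5 libraries of week 5 (n = 10) Pearson's r of MAT1A with TST was 0.97 and Spearman's rho was 0.90 (permutation test adjusted over the 28 relations, P = 0.00126 and 0.0109), and r was 0.84 without the 2 libraries farthest from the median of MAT1A. Among those of week 9 (n = 10) r was 0.74 and rho was 0.73 (adjusted permutation P = 0.0246 and 0.0703), with r of 0.73 without the 2 farthest. In the NoCycW5 cows at week 9 (n = 11) r was 0.86 and rho was 0.50 (adjusted permutation P = 0.0227 and 0.230), and r fell to 0.13 without the 2 farthest libraries, so that the relation rests on them. In the NoCycW5 cows at week 5 (n = 12), where MAT1A had 8 to 62 reads, r was 0.32 and rho was 0.22 (adjusted permutation P = 0.406 and 0.705), with r of -0.076 without the 2 farthest.

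With OXTR, MAT1A had an r of -0.78 and TST an r of -0.76 in the CycW5 cows at week 5 (adjusted permutation P = 0.0258 and 0.0283). The rho values were -0.72 and -0.75 (adjusted permutation P = 0.0738 and 0.0703). Without the 2 libraries farthest from the median of OXTR, 1 of them low in both genes, r was -0.57 and -0.52. In the NoCycW5 and CycW5 cows at week 9, r of OXTR with MAT1A was -0.58 and -0.41 and with TST it was -0.47 and -0.12, none with an adjusted permutation P of 0.05 or less. All 4 turned sign without the 2 farthest libraries, to 0.15 and 0.091 with MAT1A and to 0.90 and 0.073 with TST.

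Over all 50 libraries, which share the differences between groups, r of MAT1A with TST was 0.87 and rho was 0.83, and r was 0.73 after the group means were removed. Neither gene was the closest to the other, as TST ranked 90 of 16119 genes by r with MAT1A, and MAT1A ranked 109 with TST. Among genes with a symbol, those with the highest r with MAT1A were GM2A (0.94), the cofactor for ganglioside breakdown in lysosomes, DYDC1 (0.93), ENPP4 (0.93), B4GALNT2 (0.92), a glycosyltransferase, and GJB5 (0.92), a connexin of epithelial gap junctions. With TST they were PLLP (0.95), a membrane protein of epithelia and myelin, ITGB4 (0.95), the integrin of epithelial hemidesmosomes, ADIPOR2 (0.94), an adiponectin receptor, OR9Q2 (0.94), an olfactory receptor gene by name, and ABCC1 (0.93), an export pump that carries glutathione conjugates. All 10 remained among the 50 closest of 16119 genes with Spearman's rho and after the group means were removed.

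DYDC1 is also the neighbour of MAT1A, and in the RefSeq annotation of the ARS-UCD2.0 assembly the 2 genes overlap; in the same annotation TST overlaps MPST, its paralogue. The libraries were made with a stranded kit, but the strand setting of the counting is not given in the sources used here, so reads in overlapping stretches are uncertain. These neighbours were looked up after the values were known. DYDC1 had 0 to 15 reads (0 to 0.504 CPM) per library in the NoCycW5 cows at week 5, and a count of 0 allows up to 3 reads. It had 0.132 to 5.24 CPM in the CycW5 cows, with library 57 again the lowest. Its log2 fold changes were 4.32 for CycW5 against NoCycW5 cows at week 5 (edgeR BH P = 1.91e-07), 3.72 from week 5 to week 9 in NoCycW5 cows (BH P = 1.37e-06) and 3.26 in CycNoP4 cows (BH P = 0.00861). DYDC1 rose or was higher in all 3, as MAT1A was. In the CycNoP4 cows it went from 0.169 to 0.341 CPM at week 5 to 1.29 to 3.52 CPM at week 9, without overlap. DYDC1 ranked 2 of 16119 genes by r with MAT1A over these same libraries. Its direction and P values are therefore not independent of how MAT1A was chosen.

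**Figure D4:**
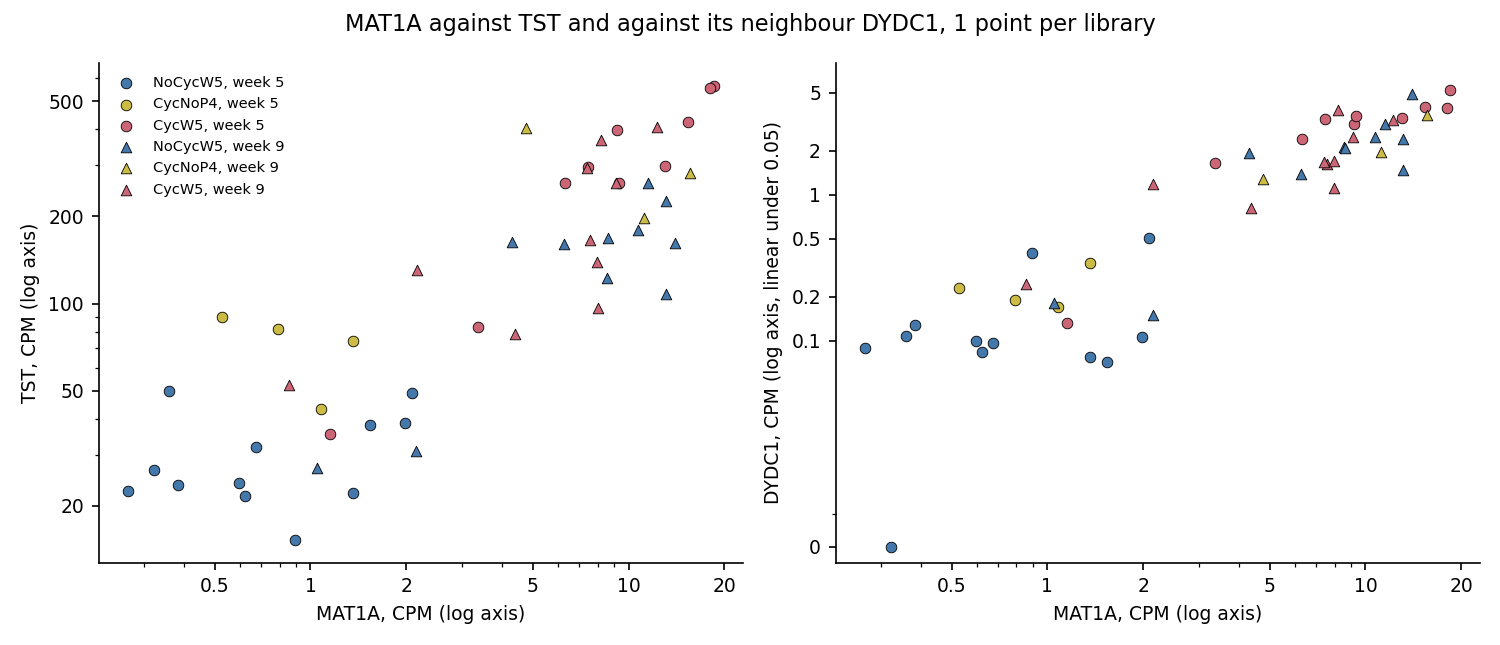
MAT1A against TST (left) and against the overlapping neighbour DYDC1 (right), in CPM on log axes, 1 point per library; the axis of DYDC1 is linear under 0.05 CPM to show 1 library at 0. Over the 50 libraries r was 0.87 for TST and 0.93 for DYDC1 on log2 CPM, and the yellow circles (CycNoP4, week 5) sit at 43.3 to 90.0 CPM of TST with 0.529 to 1.36 CPM of MAT1A.

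MPST, which encodes the mercaptopyruvate sulfurtransferase related to rhodanese, was higher in CycW5 than in NoCycW5 cows at week 5 and rose over the weeks in NoCycW5 and CycNoP4 cows, as TST did, over a narrower range. It had 28.8 ± 5.85 CPM in NoCycW5 (SD, n = 12), 24.6 ± 7.35 CPM in CycNoP4 (n = 4) and 45.4 ± 9.94 CPM in CycW5 cows (n = 10) at week 5, and group means of 44.2 to 47.6 CPM at week 9. For MPST the log2 fold change was 0.66 at week 5 in CycW5 against NoCycW5 cows (edgeR BH P = 7.01e-05), 0.62 from week 5 to week 9 in NoCycW5 cows (BH P = 7.68e-05) and 0.94 in CycNoP4 cows (BH P = 0.00484). MPST was not called in CycNoP4 against NoCycW5 cows at week 5 (-0.22, BH P = 0.425). TSTD1, a small protein with a rhodanese domain, was called there (0.74, BH P = 0.0236), as well as in CycW5 against NoCycW5 cows (1.14, BH P = 4.17e-06) and over the weeks in NoCycW5 cows (1.13, BH P = 3.27e-06). The call of TSTD1 in CycNoP4 against NoCycW5 cows was lost without library 51 or 56 (BH P up to 0.160). From week 5 to week 9 in CycNoP4 cows TSTD1 changed by 0.43 (BH P = 0.327).

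The surrounding pathway was described with 84 further genes in 8 lists, of which 16 could be paired with an identifier. The only pairs at hand were those of genes that the study called somewhere in its own analysis, so these 16 are not independent evidence of a direction and the rest were not analysed here. Among all genes with a symbol, 57.4% were called in CycW5 against NoCycW5 cows at week 5 and 66.4% from week 5 to week 9 in NoCycW5 cows, and the counts below are read against those shares. For the CycNoP4 cows the shares were 15.8% against NoCycW5 cows, 27.5% against CycW5 cows and 30.2% from week 5 to week 9.

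At week 5, 14 of the 16 genes were higher in the CycW5 than in the NoCycW5 cows and none was lower, with a median log2 fold change of 1.10. The median over all genes tested was -0.016, and that of the genes with a symbol, from which the 16 came, was not computed. The 2 genes of the methionine cycle with an identifier, of 10 listed, were higher. They were GNMT, which spends S-adenosylmethionine on glycine (1.05, BH P = 0.000733), and MTRR, which keeps methionine synthase active (0.68, BH P = 0.0195). Both small-molecule methyltransferases with an identifier, of 10 listed, were higher. They were PNMT, the enzyme that makes adrenaline from noradrenaline (3.24, BH P = 6.45e-05), and TPMT, which methylates thiopurines (0.94, BH P = 5.71e-05). PNMT had only 0 to 18 reads per library in the NoCycW5 cows. All 4 glutathione genes with an identifier, of 15 listed, were higher. Among them were GPX2, a glutathione peroxidase of epithelia (1.71, BH P = 0.00143), and GCLC, the catalytic subunit of the first step of glutathione synthesis (1.37, BH P = 0.000205). So were SMS (1.61, BH P = 3.17e-06) and SMOX (1.58, BH P = 4.24e-06), the synthase and oxidase of spermine, MTHFD1L (1.36, BH P = 0.000560), a mitochondrial folate enzyme, and CHDH, which oxidizes choline to betaine (1.77, BH P = 1.03e-06). CTH, which releases cysteine from cystathionine (0.14, BH P = 0.740), and ENOPH1 of the methionine salvage pathway (0.12, BH P = 0.474) were not called. The call of MTRR was lost with limma-voom (BH P up to 0.0640 with and without quality weights) and without library 70 (BH P = 0.0768).

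From week 5 to week 9 in the NoCycW5 cows 13 of the 16 genes rose and CTH fell, with a median of 0.66. Over all genes tested the median was -0.0086, and again that of the genes with a symbol was not computed. PNMT changed most (3.39, BH P = 2.24e-05), from only 0 to 18 reads per library at week 5. It was followed by CHDH (1.78, BH P = 9.24e-07), MTHFD1L (1.65, BH P = 2.85e-05) and GCLC (1.55, BH P = 2.32e-05). CTH fell by 0.81 on the log2 scale (BH P = 0.0167), from 1.53 ± 0.715 CPM (SD, n = 12) to 0.868 ± 0.412 CPM (n = 11). GNMT (0.38, BH P = 0.184) and GGT5 (0.22, BH P = 0.512) were not called. The calls of TPMT (0.41) and SMOX (0.61) were lost in 17 and 8 of the 23 fits that left out 1 library. In the CycW5 cows none of the 16 was called between the weeks, nor between CycW5 and NoCycW5 cows at week 9. The difference of the week changes was called for 8 of the 16, all higher, which fell to 3 with limma-voom. For this difference the share called among genes with a symbol was not computed.

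In the CycNoP4 cows 5 of the 16 rose from week 5 to week 9 and CTH fell. PNMT went from 0.134 ± 0.0391 CPM (3 to 5 reads, SD, n = 4) to 3.85 ± 1.90 CPM (n = 3). This was a log2 fold change of 4.80 (edgeR BH P = 0.00340). CHDH rose from 6.12 ± 2.45 to 18.4 ± 3.67 CPM (1.59, BH P = 0.00969). GGT5, a gamma-glutamyl transferase (1.56, BH P = 0.0145), MTRR (1.27, BH P = 0.0184) and MPST were the others. CTH fell by 1.65 on the log2 scale (BH P = 0.0424). Its median was 1.94 CPM at week 5 (0.541 to 9.17 CPM, n = 4) and 0.841 CPM at week 9 (n = 3). The call of CTH was lost with limma-voom, without and with quality weights, and in the fit of the 7 CycNoP4 libraries alone (BH P up to 0.261). It was also lost without library 51, 79 or 94 (BH P up to 0.590). The call of GGT5 was lost without library 56 or 88, and that of MTRR without library 79, in both cases with a BH P of up to 0.138.

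At week 5 the CycNoP4 cows were above NoCycW5 cows in 4 of the 16 genes and below them in none. Here TSTD1, SMOX (0.94, BH P = 0.0220), SMS (0.995, BH P = 0.0301) and MTHFD1L (1.02, BH P = 0.0478) were higher. Each of these 4 calls was lost when library 51 or 56 of the CycNoP4 cows was left out, that of MTHFD1L in 13 of 16 such fits, and with limma-voom only that of TSTD1 remained. Against CycW5 cows 7 were lower and none was higher, led by PNMT (-3.84, BH P = 0.00498) and GGT5 (-1.39, BH P = 0.0135), with CHDH, GNMT, MPST, MTRR and ENOPH1. The call of MPST (-0.89, BH P = 0.00440) held in all alternatives and all 14 fits that left out 1 library. That of PNMT was lost with limma-voom (BH P = 0.0635), those of GGT5 and CHDH without library 56 (BH P of 0.0617 and 0.0537) and that of GNMT without library 58 (BH P = 0.0515). MTRR and ENOPH1 lost theirs in 3 and 2 of the alternatives (BH P up to 0.100 and 0.0756) and in 5 and 2 of the 14 fits (BH P up to 0.102 and 0.111). PNMT was not called between CycNoP4 and NoCycW5 cows (-0.58, BH P = 0.630).

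**Figure D5:**
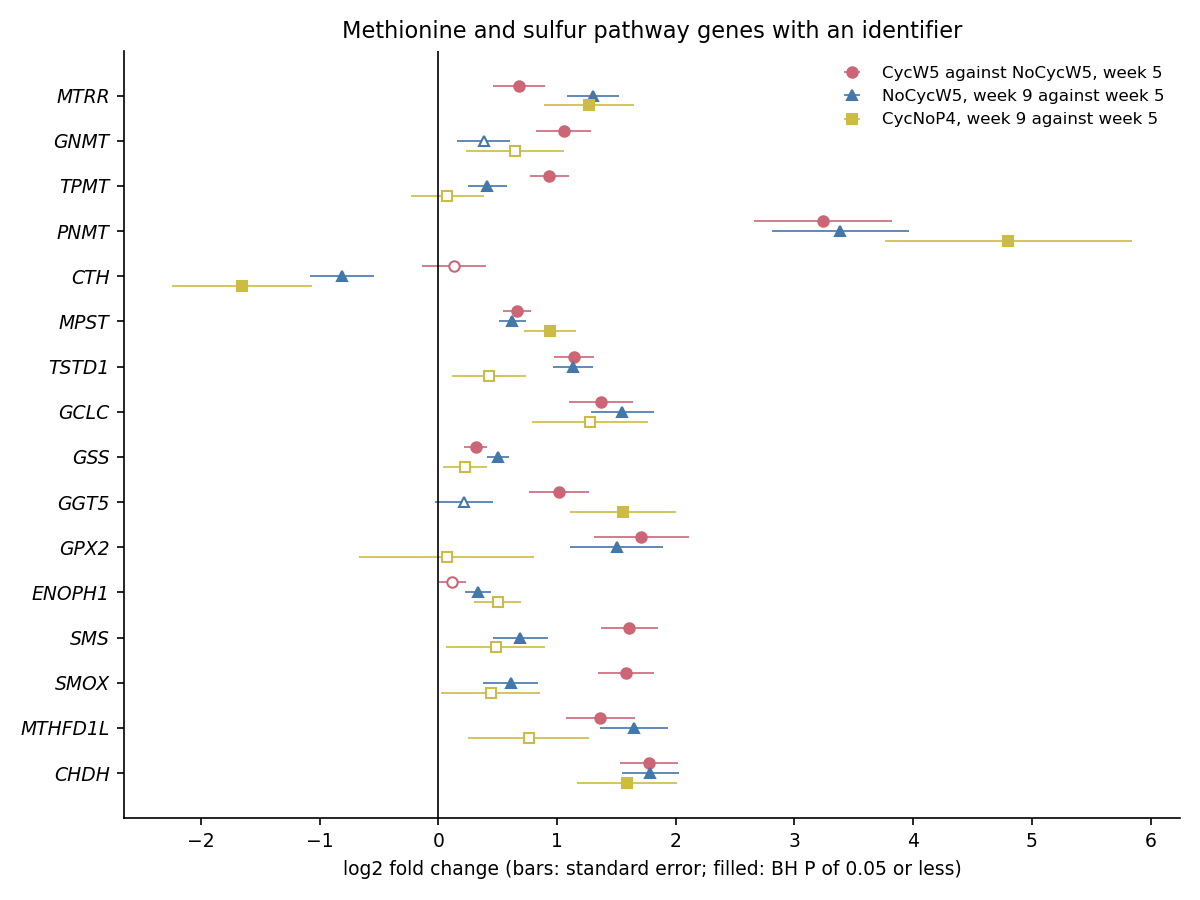
Log2 fold changes of the 16 methionine and sulfur pathway genes with an identifier, in CycW5 against NoCycW5 cows at week 5, NoCycW5 week 9 against week 5 and CycNoP4 week 9 against week 5; bars are standard errors and filled symbols have a BH P of 0.05 or less. PNMT was the highest in each (3.24, 3.39 and 4.80), with at most 18 reads per library in NoCycW5 and 5 in CycNoP4 cows at week 5. CTH was the only gene below 0 with a filled symbol (-0.81 and -1.65), and its call in the CycNoP4 cows was lost in some alternatives.

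Markers of cell types moved with some of these comparisons. Of 36 markers listed, 7 had an identifier, and these too came from the genes called by the study. The epithelial markers EPCAM, KRT8 and CLDN4 were all higher at week 5 in CycW5 than in NoCycW5 cows (0.71, 0.78 and 1.94) and from week 5 to week 9 in NoCycW5 cows (1.09, 0.64 and 2.83). Their summed level was 226 to 448 CPM in NoCycW5, 460 to 881 CPM in CycNoP4 and 324 to 1177 CPM in CycW5 cows at week 5, and 272 to 1192 CPM at week 9, and none was at 0 in any group. In the CycNoP4 cows from week 5 to week 9 none of the 3 was called (0.15 for EPCAM, -0.36 for KRT8 and 0.88 for CLDN4). These groups held 4 and 3 libraries, and CLDN4 ran from 26.6 to 139 CPM at week 5. The lack of a call therefore does not show that these markers were unchanged. Against NoCycW5 cows at week 5 the CycNoP4 cows were higher in KRT8 (0.93, BH P = 0.00330) but not called for EPCAM (0.88, BH P = 0.0510) or CLDN4 (1.27, BH P = 0.127). The endothelial markers CDH5 and VWF were lower at week 5 in CycW5 than in NoCycW5 cows (-0.43 and -0.80), with summed levels of 149 to 312 against 217 to 590 CPM, and VWF also fell from week 5 to week 9 in NoCycW5 cows (-0.62, BH P = 0.00968). The stromal marker PDGFRA was not called in any comparison. APOA1, the only hepatocyte marker with an identifier, was higher at week 9 in NoCycW5 cows (1.06, BH P = 0.0444) and not called in the others. The part of cell composition in the levels of MAT1A and TST was not tested, and in bulk tissue a change in the share of a cell type cannot be told apart from a change of RNA per cell.

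Within groups, r of MAT1A with EPCAM was 0.76 in the NoCycW5 cows at week 5 (n = 12, rho 0.76, adjusted permutation P = 0.0128 and 0.0354, r of 0.84 without the 2 libraries farthest from the median of EPCAM) and 0.10 in the CycW5 cows at week 5 (n = 10, adjusted permutation P = 0.802). For TST the corresponding values were 0.20 and 0.21 (adjusted permutation P = 0.621 and 0.649). TST with its neighbour MPST had r of 0.75 in NoCycW5 and 0.76 in CycW5 cows at week 5 (adjusted permutation P = 0.0128 and 0.0258). Without the 2 libraries farthest from the median of TST, r was 0.72 and 0.37. MAT1A with DYDC1 had r of 0.93 in CycW5 cows at week 5 (adjusted permutation P = 0.00028) and 0.45 in NoCycW5 cows (adjusted permutation P = 0.207), where 10 of the 12 libraries had at most 4 reads of DYDC1. DYDC1 was among the genes closest to MAT1A over these same libraries, so these P values are not those of a pair chosen beforehand. Reads in the overlaps of MAT1A with DYDC1 and of TST with MPST are also uncertain.

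At week 9, 3 of the 8 relations with EPCAM, MPST and DYDC1 turned sign without the 2 farthest libraries. The 2 farthest were taken by the level of EPCAM in relations with EPCAM, of TST in those with MPST and of MAT1A in those with DYDC1. In NoCycW5 cows (n = 11) r with EPCAM was 0.69 for MAT1A (adjusted permutation P = 0.0374) and 0.58 for TST (adjusted permutation P = 0.100), and without the 2 farthest libraries it turned to -0.086 and -0.78. In CycW5 cows (n = 10) it was 0.34 and 0.50 (adjusted permutation P = 0.428 and 0.207), and 0.64 and 0.85 without the 2 farthest. TST with MPST had r of 0.90 in NoCycW5 and 0.70 in CycW5 cows (adjusted permutation P = 0.0258 and 0.0269), which fell to -0.064 and 0.45. MAT1A with DYDC1 had r of 0.90 and 0.86 (adjusted permutation P of 0.0128 for both), and 0.50 and 0.77 without the 2 farthest.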

How the data were processed

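Total RNA of 50 endometrial biopsies was made into stranded libraries. After trimming, the authors mapped reads to UMD3.1 using Hisat2 and deposited raw FeatureCounts read counts per Ensembl gene; versions and the strand setting are not given in the sources used here. Symbols came from the study's supplementary tables (2321 identifiers), names only. MAT1A, TST and all lists were chosen with earlier results of these data known, and 1 listed pathway gene is not reported here.

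Counts were tested with edgeR 4.0.16 (R 4.3.3) by the quasi-likelihood test (TMM, filterByExpr, robust), with Benjamini-Hochberg adjustment over all genes tested at 0.05 and no covariates. In comparisons between groups or weeks, MAT1A and TST were not tested where a compared group helped, or may have helped, to choose them. CycW5 and NoCycW5 libraries were fitted together over both weeks, CycNoP4 libraries within each week with all groups, and their week change in all 50 libraries. Scripts were tested on simulated data. Within-group correlations used 100000 permutations. Log2 CPM used a prior count of 2. The genes named were the members, their paralogues, OXTR, in each list up to 4 called genes with the smallest BH P, and the 5 genes with a symbol closest to each member; DYDC1, and uncalled or unstable genes, were named after their values were seen.

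Alternatives were DESeq2 1.42.0 (size factors, Wald test), limma 3.58.1 (voom, without and with quality weights), no filter, a stricter filter (1 CPM in 10 libraries, or in 4 or 3 with CycNoP4), all 50 libraries in 1 fit, leaving out each library and, chosen after seeing the data, the 7 CycNoP4 libraries alone.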

Additional observations from a re-analysis of the deposited data

Results flagged for a closer look

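Among 57 sets of 1 gene in 1 group that were examined for a library far from the others, 4 were found, and chance gives about 1 in 20. In the CycNoP4 cows at week 5, library 56 had 23.9 CPM of GSS, a glutathione synthesis gene, against 18.2 CPM in the next library, and it was also the library with the highest TST (90.0 CPM). In the CycW5 cows at week 9, library 72 had 64.6 CPM of GNMT against 22.1 CPM and 132 CPM of TPMT against 55.4 CPM, and library 89 had 3.57 CPM of CTH against 1.36 CPM. Neither MAT1A nor TST had such a library in any group of 4 to 10 libraries.

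Week changes were not the same in both statuses: that of NoCycW5 cows exceeded that of CycW5 cows, on the log2 scale, by 3.76 for MAT1A and 2.93 for TST, which were chosen for this pattern and carry no test. The edgeR test of the difference itself called 7.82% of all genes. The 16 pathway genes came from genes the study called, and the share called among genes with a symbol was not computed for this difference. Of the 16, 8 passed, as did DYDC1, at a BH P of up to 0.0487: DYDC1 (4.48), PNMT (3.11), GPX2 (1.74), CHDH (1.72), GCLC (1.62), MTHFD1L (1.402), TSTD1 (1.16), SMOX (1.05) and MPST (0.54). In each the NoCycW5 cows had the more positive change. DYDC1 was among the genes closest to MAT1A over these libraries, so its call is not independent of how MAT1A was chosen. The calls of SMOX, GPX2 and MPST were the least stable of these, lost in 32, 31 and 23 of the 43 fits that left out 1 library.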

How the results depend on the processing

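Of 588 values recomputed under alternatives, 571 were counted as the same. For a log2 fold change this meant the same direction with the same side of the threshold or, where no threshold was applied, a shift smaller than the SD within groups. Counts of genes and the correlation had to stay within a set range. Of the others, 10 turned sign, 4 counts or correlations left their range and 3 lost a call. No paired analysis was possible because the labels number libraries and do not link them to cows. MAT1A in CycNoP4 against NoCycW5 cows at week 5, near 0, turned to -0.061 with library quality weights, and over fits that left out 1 library it ran from -0.20 to 0.24. TST from week 5 to week 9 in CycNoP4 cows ran from 1.70 to 2.22, and MAT1A in CycNoP4 against NoCycW5 cows at week 9 from -0.093 to 0.65. Pathway genes called were 3 in place of 8 for the difference of week changes and 1 in place of 4 for CycNoP4 against NoCycW5 cows with limma-voom, and 6 in place of 0 for the CycW5 week change with quality weights, where 3181 genes were called overall (243 with the DESeq2 Wald test, 7 with edgeR). The correlation of MAT1A with TST was 0.73 after the group means were removed. The causes were not tested. The groups of 3 and 4 CycNoP4 libraries, and the 8 to 62 reads of MAT1A in NoCycW5 cows at week 5, limit the precision of the values that rest on them. The count of pathway genes in the CycNoP4 week change was recomputed by a choice made after seeing the data, and stayed at 5 to 7.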
